A study of Mus musculus with 9 samples.

Results

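The genes described here are 10 markers of macrophages and other leukocytes: Csf1, Csf1r, Ptprc, Adgre1, Cd68, Mrc1, Cd163, Lyve1, Lyz1 and Lyz2. They were taken by gene name, with no threshold on their values, from the 24537 gene names in the table of sham quadriceps and sham heart, where they fill 16 of 35745 transcript rows. Only 3 of the 10 (Csf1, Lyz1 and Lyz2) are among the 587 genes of the second table, which compares quadriceps after transverse aortic constriction (TAC) with sham quadriceps. TAC narrows the aorta, here around a 27 gauge needle, and loads the left ventricle with pressure. All groups were C57Bl6 mice (male C57Bl/6JCrl mice by the paper), 8 weeks old at surgery in the series description, and tissue was taken 12 weeks after sham surgery or TAC. RNA sequencing gave 3 libraries for each of the groups sham heart, sham quadriceps and TAC quadriceps, and heart after TAC was not analysed here. The comparisons share the sham quadriceps libraries.

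Tissue macrophages are phagocytes that live in most organs, heart and skeletal muscle included. They depend on signalling through the receptor tyrosine kinase CSF1R, which binds CSF1 (M-CSF) made by neighbouring stromal, endothelial and muscle cells, and also binds interleukin-34. In muscle and heart they clear debris, take part in repair after injury and interact with fibroblasts and vessels.

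The sham libraries held 23383452 to 38382751 counts. The labelled tissues were told apart by their muscle genes: all 5 heart muscle genes examined were lower in quadriceps and all 5 fast skeletal muscle genes were higher, with 768767 to 933029 counts of the cardiac myosin Myh6 in heart libraries against 59 to 82 in quadriceps. The heart libraries differed in Myl7, the atrial myosin light chain, with 2075, 164 and 3 counts. Levels below are CPM (counts scaled to library size) after TMM normalisation, in replicate order, for the transcript of each gene with the most counts. A log2 fold change is of quadriceps over heart, with its standard error (SE), and adjusted p-values come from the quasi-likelihood test of edgeR over 24280 transcripts.

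In sham quadriceps 7 of the 10 markers were lower than in sham heart at an adjusted p under 0.05, 1 (Lyz1) was higher, and 2 (Cd68 and Cd163) did not pass. Over all transcripts tested, 34.4% were lower and 32.2% higher by the same rule. With a log2 fold change beyond 2 and an unadjusted p under 0.05, 1 marker was lower (Csf1) and 1 higher (Lyz1), against 8.64% and 7.00% of all transcripts. All 3 quadriceps libraries lay below all 3 heart libraries for 7 markers, which 38.3% of all transcripts did. The median log2 fold change of the markers was -0.89, against -0.06 over all transcripts. In RNA of whole tissue, fewer cells that make these RNAs and less of the RNAs per cell cannot be told apart. For Csf1 and Lyve1 these cells need not be macrophages.

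**Figure D1:**
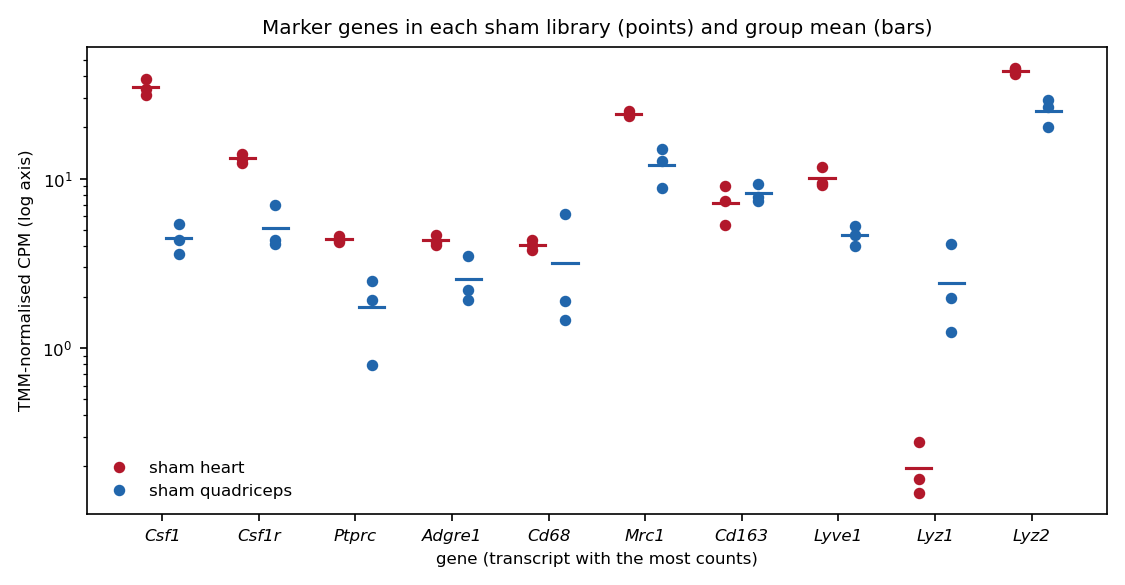
TMM-normalised CPM (log axis) of the 10 genes in each sham library, with points for libraries and bars for the means of 3 heart and 3 quadriceps libraries. Quadriceps points sit below heart points for 7 genes, overlap them for Cd68 and Cd163, and sit above them for Lyz1.

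Csf1 (chromosome 3, 107741048 to 107760469 on the minus strand, GRCm38) encodes the growth factor M-CSF. It was measured at 31.3, 38.5 and 33.7 CPM in heart and at 5.40, 3.60 and 4.35 CPM in quadriceps. The heart libraries were all far above the quadriceps libraries, and the level was 7.72-fold lower in quadriceps (log2 fold change -2.95, SE 0.16, adjusted p = 3.6e-07). It was the only one of the 10 genes to be lower by more than 4-fold. The other 2 transcript rows of Csf1 were also lower, with log2 fold changes of -2.70 (NM_001113529) and -3.55 (NM_001113530). The rows of a gene share reads, so they are not independent. The shortest, NM_001113530, held 43.9% to 49.6% of the counts of NM_007778 in heart libraries and 28.6% to 33.7% in quadriceps libraries, while NM_001113529 held 71.9% to 75.6% and 87.0% to 88.4%. For each of these shares the groups did not overlap (exact permutation test, two-sided, p = 0.1, the smallest that 3 against 3 libraries allow).

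Csf1r, which encodes the receptor of that factor and marks cells of the macrophage lineage, was at 14.0, 13.1 and 12.3 CPM in heart and at 4.12, 4.35 and 6.95 CPM in quadriceps. The groups did not overlap, and the level was 2.60-fold lower in quadriceps (log2 fold change -1.38, SE 0.18, adjusted p = 0.000132). The annotation places Hmgxb3 on the opposite strand over part of Csf1r, and whether the counting used strand is not given in the sources used here. Of the other genes of this axis, 4 of 6 passed the filter on low counts and 2 of the 4 were lower. These were Csf3r, the receptor of G-CSF, and Csf2ra, a subunit of the GM-CSF receptor. Csf3r rests on few reads, with 19, 18 and 17 counts in heart libraries against 6, 2 and 3 in quadriceps libraries. The groups of Csf2ra overlapped. Csf2rb did not pass, with a log2 fold change of 0.31 (SE 0.26, adjusted p = 0.312). Il34, the alternative ligand of CSF1R, was counted 33, 48 and 34 times in the heart libraries against 27, 33 and 11 times in quadriceps, which gave a log2 fold change of 0.32 (SE 0.30, adjusted p = 0.365). Csf2 and Csf3, the ligands GM-CSF and G-CSF, had at most 1 count in any library.

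Ptprc (chromosome 1, 138062861 to 138175708, minus strand) encodes CD45, the phosphatase carried by nearly all leukocytes. Heart libraries had 4.22, 4.59 and 4.33 CPM and quadriceps libraries 2.50, 0.794 and 1.92 CPM. The quadriceps values were lower and more spread, with the lowest in library 2, and the difference was 2.51-fold (log2 fold change -1.33, SE 0.30, adjusted p = 0.00350). A130071D04Rik overlaps Ptprc on the same strand.

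Adgre1 (chromosome 17, 57358691 to 57483527, plus strand) encodes F4/80, the classical surface marker of mouse macrophages. Its levels were 4.24, 4.65 and 4.08 CPM in heart and 2.21, 1.92 and 3.50 CPM in quadriceps. The groups did not overlap, although quadriceps library 3 came near the heart libraries, and the level was 1.73-fold lower in quadriceps (log2 fold change -0.79, SE 0.21, adjusted p = 0.00796).

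Cd68 (chromosome 11, 69664213 to 69666153, minus strand) encodes a glycoprotein of the lysosomes of macrophages. It had 3.80, 4.35 and 4.05 CPM in heart and 1.47, 1.88 and 6.16 CPM in quadriceps. Quadriceps library 3 exceeded every heart library and the other quadriceps libraries lay below them all, so the groups overlapped (log2 fold change -0.43, SE 0.43, adjusted p = 0.393). Without that library the log2 fold change was -1.26 (adjusted p = 0.000748), so 1 library decides this call. The noncoding row NR_110993 held 42.5% to 50.8% of the counts of the coding row in heart and 57.8% to 72.5% in quadriceps.

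Mrc1, Cd163 and Lyve1 encode receptors found on many resident macrophages: the mannose receptor CD206, the scavenger receptor for haemoglobin bound to haptoglobin, and a hyaluronan receptor that lymphatic endothelium also carries. Mrc1 (chromosome 2, 14229392 to 14332057, plus strand) was at 25.03, 23.4 and 24.0 CPM in heart and at 14.9, 8.74 and 12.7 CPM in quadriceps. The heart values lay close together and above all quadriceps values, a 1.995-fold difference (log2 fold change -0.997, SE 0.17, adjusted p = 0.000645). Lyve1 (chromosome 7, 110850607 to 110863239, minus strand) was at 11.7, 9.16 and 9.36 CPM in heart and at 5.22, 4.01 and 4.63 CPM in quadriceps. It was lower in every quadriceps library, by 2.17-fold (log2 fold change -1.12, SE 0.15, adjusted p = 0.000125).

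Cd163 (chromosome 6, 124304656 to 124330527, plus strand) did not follow these genes. It had 8.99, 5.29 and 7.34 CPM in heart and 9.34, 7.78 and 7.40 CPM in quadriceps, with overlapping groups and a log2 fold change of 0.19 (SE 0.19, adjusted p = 0.404). Its direction depended on the scaling and was the opposite with library totals (log2 fold change -0.55, adjusted p = 0.0416). Relative to the median of all transcripts, the log2 fold change of Cd163 was 0.24 with TMM and 0.25 with library totals. Library totals moved the median of all transcripts from -0.06 to -0.80 and that of the 10 markers to -1.64, which left the distance between these medians at -0.84 with TMM and -0.83 with totals. Over all transcripts, totals gave 15203 lower and 3240 higher calls, against 8354 and 7828 with TMM. With totals Cd68 was also called (log2 fold change -1.19, adjusted p = 0.0389), and all genes but Lyz1 were lower in quadriceps.

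**Figure D2:**
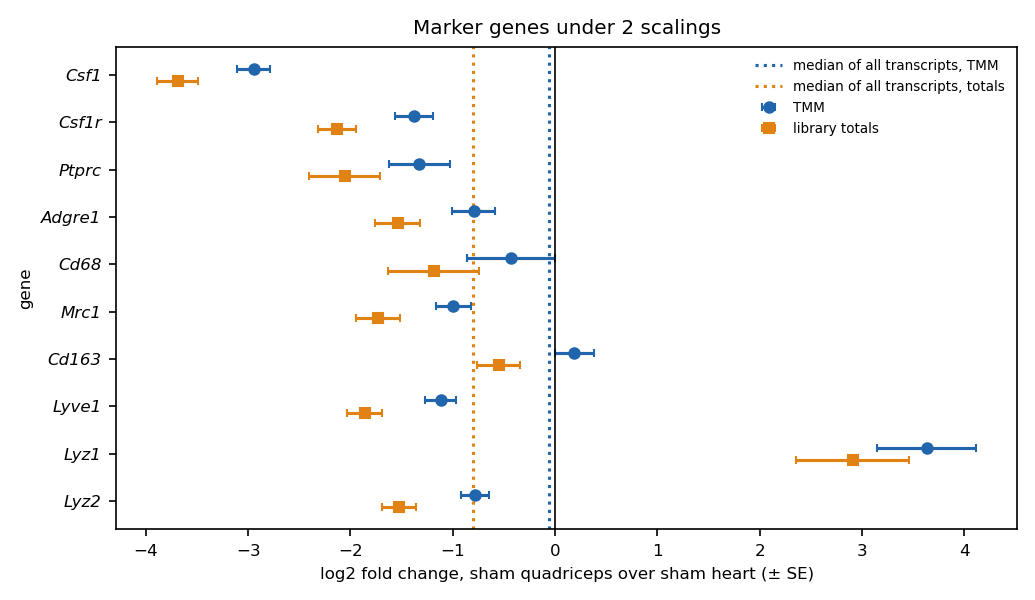
Log2 fold changes of sham quadriceps over sham heart, with SE bars, under TMM (circles) and library totals (squares), with dotted lines for the median of all transcripts under each. Totals move every gene to the left by about as much as they move the median, and Cd163 crosses 0.

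Lyz1 and Lyz2 encode lysozyme, the enzyme that cleaves bacterial cell walls. Lyz2 is the form of macrophages and neutrophils, and Lyz1 is best known from the Paneth cells of the intestine. The genes are neighbours on the minus strand of chromosome 10 in GRCm38, Lyz2 at 117277331 to 117282321 and Lyz1 at 117287797 to 117292868, with 5475 bases between them. Their coding sequences, both of 447 bases, are identical at 425 positions (95.1%). The coding part of exon 1 is printed because it holds 14 of the 22 differing bases, which are in capitals, and so shows where a read can tell the genes apart. The sequences run 5′ to 3′ on the coding strand, Lyz1 from chr10:117292703-117292838 and Lyz2 from chr10:117282107-117282242, and are taken from GENCODE transcripts.
Lyz1: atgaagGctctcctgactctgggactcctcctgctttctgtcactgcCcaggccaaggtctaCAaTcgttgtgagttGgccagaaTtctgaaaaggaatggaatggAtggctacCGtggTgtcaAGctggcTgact
Lyz2: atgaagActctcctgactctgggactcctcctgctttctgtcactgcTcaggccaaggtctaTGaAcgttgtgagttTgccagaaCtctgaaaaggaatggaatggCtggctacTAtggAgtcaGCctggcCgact
Reads were up to 50 bases long. Of the 1214 stretches of 50 bases in the Lyz1 transcript 195 (16.1%) also occur in the Lyz2 transcript, as do 195 of 1267 in the other direction. A read from such a stretch cannot be assigned. The GENCODE Lyz2 transcript compared has 1316 bases, whereas the counted transcript has a given length of 1051. The shares of stretches are therefore approximate for the counts. How reads matching both genes were counted is not given in the sources used here, so the split of counts between Lyz1 and Lyz2 is uncertain.

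Lyz2 was measured at 41.1, 44.7 and 44.0 CPM in heart and at 26.5, 20.1 and 29.0 CPM in quadriceps. All quadriceps libraries were lower, by 1.72-fold (log2 fold change -0.78, SE 0.14, adjusted p = 0.00074). Lyz1 went the other way, with 8, 14 and 6 counts in the heart libraries against 111, 47 and 22 in the quadriceps libraries. These are 0.168, 0.278 and 0.140 CPM against 4.08, 1.96 and 1.24 CPM, a 12.4-fold higher level in quadriceps (log2 fold change 3.63, SE 0.48, adjusted p = 0.000129). The groups did not overlap, but the quadriceps libraries differed among themselves, and the heart values rest on few reads. With limma on log2 RPKM the log2 fold change was 1.42 at a pseudocount of 0.5 and 2.27 at 0.1, on a scale that understates changes of low genes. The share of Lyz1 in the counts of both genes was 0.407%, 0.618% and 0.316% in heart and 13.3%, 8.92% and 4.11% in quadriceps. This share does not depend on the scaling, and the groups did not overlap (means 0.447% ± 0.155 and 8.79% ± 4.62, SD, n = 3 each, exact permutation test, two-sided, p = 0.1, adjusted p = 0.143 over 10 ratios).

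Levels per transcript length, in the deposited RPKM values, allow the genes to be ranked within a tissue. In heart, Lyz2 led with 53.5 ± 2.85 RPKM (SD, n = 3), followed by Csf1 (10.8 ± 1.25), Mrc1 (5.92 ± 0.148), Lyve1 (5.02 ± 0.651), Csf1r (4.43 ± 0.259) and Cd68 (4.26 ± 0.332). Cd163 (2.09 ± 0.518 RPKM), Adgre1 (1.74 ± 0.133), Ptprc (1.03 ± 0.0547) and Lyz1 (0.202 ± 0.0774) were lower. Lyve1 overlapped Csf1r, Csf1r overlapped Cd68 and Cd163 overlapped Adgre1, while the other neighbours in this order did not overlap. In quadriceps, Lyz2 was again the highest, at 18.6 ± 4.10 RPKM, and Ptprc the lowest, at 0.248 ± 0.137 RPKM. The 8 genes between them ran from Cd68 (1.95 ± 1.57 RPKM) to Adgre1 (0.609 ± 0.198 RPKM). Within these 8, neighbours in the order of the means overlapped. Lyz2 did not overlap Cd68, and Adgre1 did not overlap Ptprc. Mrc1, Cd163 and Lyve1 nevertheless lay above all values of Csf1 and Adgre1. Csf1, which had been above these 3 genes in every heart library, was thus below them in quadriceps.

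The composition of the signal was compared within libraries, as the log2 ratio of each gene's counts per length to those of Csf1r, which removes the scaling. The ratio of Csf1 to Csf1r was 1.28 ± 0.206 in heart and -0.30 ± 0.539 in quadriceps (SD, n = 3 each). Csf1 thus lay above its receptor in every heart library, and below it in 2 of the 3 quadriceps libraries, whose values were 0.28, -0.39 and -0.79. Cd163 moved the other way, from -1.12 ± 0.357 in heart to 0.49 ± 0.558 in quadriceps, and Lyz1 moved from -4.52 ± 0.503 to 0.40 ± 1.24. For Adgre1, Cd68 and Lyz2 the ratio was higher in all quadriceps libraries, by 0.58, 0.74 and 0.60 on the log2 scale, and by 0.34 for Cd68 without quadriceps library 3. The ratios of Ptprc, Mrc1 and Lyve1 overlapped between the tissues, with differences of -0.09, 0.36 and 0.27. For the ratios without overlap the exact permutation test gave p = 0.1, the smallest possible with 3 against 3 libraries, and 0.143 after adjustment over 10 ratios.

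**Figure D3:**
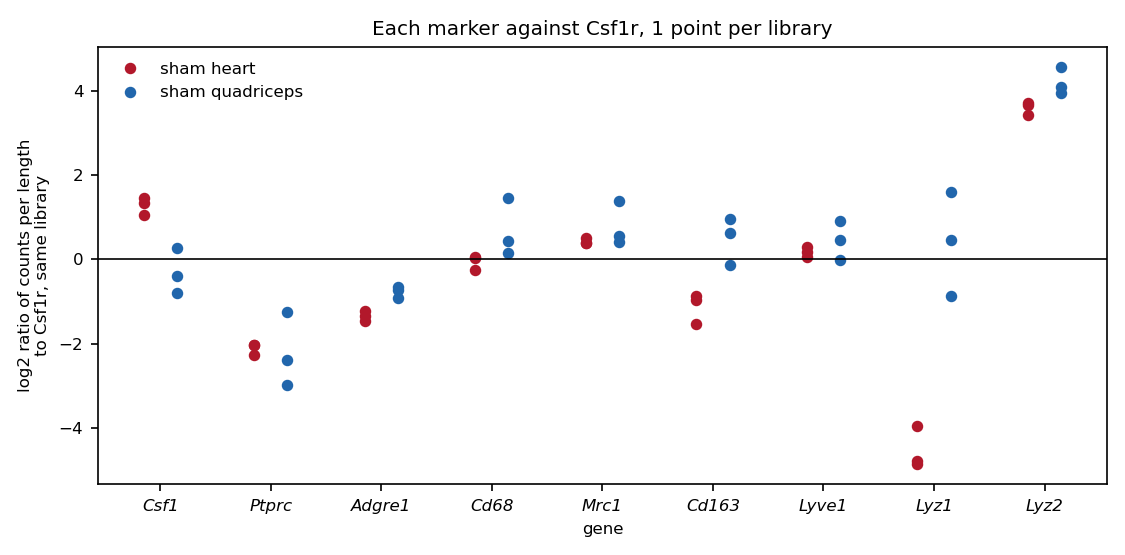
Log2 ratio of counts per transcript length of each gene to Csf1r in the same library, with 1 point per sham heart or sham quadriceps library. Csf1 is the gene whose quadriceps points all lie below its heart points, and Lyz1 and Cd163 show the largest shifts upwards.

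Over the 6 sham libraries, the 5 genes outside the markers whose log2 CPM followed Csf1r most closely were Frmd6 (Pearson's r = 0.999), Smad6, Hps3, Cttn and Zbed3 (r = 0.998 for Zbed3), among 19685 transcripts. The 6 points form the 2 tissues, so r here mostly describes a difference between tissues, and 80 transcripts had an r over 0.99. Among the markers, r with Csf1r ranged from -0.97 for Lyz1 to 0.96 for Adgre1.

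Other genes of the macrophage lineage were taken from 5 lists of 48 genes, of which 45 passed the filter. Together 20 of the 45 were lower in quadriceps and 8 higher at an adjusted p under 0.05. Over all transcripts tested, 34.4% were lower and 32.2% higher, shares that also apply to the lists below. The median log2 fold change of the 45 was -0.32. It was the same with genes of at most 3 counts set to a floor of 3 counts per library. The higher genes of the 45 numbered 4 with library totals, 4 without heart library 1 and 5 without quadriceps library 1. Of 16 macrophage and monocyte genes, 9 were lower and 2 higher. C1qa, a chain of complement C1q made mainly by macrophages, was 2.87-fold lower (log2 fold change -1.52, SE 0.15, adjusted p = 1.74e-05). The other chains, C1qb and C1qc, were 1.74-fold and 1.25-fold lower (adjusted p = 0.00104 and 0.0383). Itgam, Ctss, Tyrobp, Fcer1g and Mpeg1 did not pass, with log2 fold changes of 0.08, -0.02, -0.27, 0.54 and -0.67. Ly6c2, a marker of classical monocytes, fell from 28, 29 and 24 counts in heart libraries to 1, 0 and 0 in quadriceps libraries. The higher genes were Trem2, a lipid receptor of macrophages, and Ccr2, the chemokine receptor of recruited monocytes. Trem2 rests on few reads, with 8, 11 and 11 counts in heart libraries against 15, 7 and 12 in quadriceps libraries. Ccr2 had 63, 89 and 38 counts in heart libraries against 132, 30 and 58 in quadriceps libraries (log2 fold change 1.24, SE 0.43, adjusted p = 0.0283). The counts of Ccr2 overlapped between the tissues.

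Of 11 genes of resident tissue macrophages, 8 were lower and 2 higher, with a median of -0.84. Timd4, a receptor for apoptotic cells on long-lived resident macrophages, was 2.47-fold lower, and Folr2, a folate receptor of such cells, was 2.07-fold lower (adjusted p = 0.000967 and 0.00159). Vsig4, a complement receptor of resident macrophages, changed most, with 42, 35 and 41 counts in heart libraries against 8, 4 and 1 in quadriceps libraries. Cbr2 and Cd209f were the higher genes, with log2 fold changes of 0.66 and 1.10. Cd209f rests on few reads, with 9, 15 and 19 counts in heart libraries against 17, 21 and 8 in quadriceps libraries.

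The 7 myeloid transcription factors split differently, with 1 lower and 4 higher. Spi1, which encodes PU.1, the factor of the myeloid lineage that also binds the Csf1r promoter, was counted 48, 49 and 36 times in heart libraries against 9, 11 and 7 times in quadriceps (2.38-fold lower, adjusted p = 0.00262). The higher genes included Maf, Cebpb and Runx1, which are also expressed outside leukocytes. Maf rose from 420, 465 and 368 counts in heart libraries to 3644, 3072 and 2473 in quadriceps libraries, 15.1-fold higher. None of 7 tested genes of antigen presentation and dendritic cells was called by edgeR after adjustment, and Cd74 and Itgax had an unadjusted p under 0.05 (0.0363 and 0.0443).

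Other leukocytes left little signal. Only 13 of 27 of their genes passed the filter, and 3 were lower and 4 higher. The higher genes numbered 2 with library totals, and the lower ones 1 without heart library 2. Cd3e of T cells had 2 to 6 counts in any library, Cd79a of B cells at most 2, and S100a8 of neutrophils 1 to 4, so differences in these cells were not detectable at this depth. The 4 higher genes were the mast cell genes Mcpt4, Cma1, Tpsb2 and Cpa3. These genes had only 2 to 18 counts in heart libraries and 4 to 38 in quadriceps libraries, and the groups of Cpa3 overlapped. The lower ones included Kit, a receptor of mast cells that other cells also carry, along with Cd4 and Ncr1, which had at most 3 counts in each quadriceps library.

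Markers of blood endothelium and red cells were mostly lower in quadriceps, and those of lymphatic endothelium and fibroblasts only in part. All 5 blood endothelial genes were lower in quadriceps, their summed level being 453 to 496 CPM in heart libraries and 135 to 162 CPM in quadriceps libraries, and Pecam1 was 2.63-fold lower (adjusted p = 2.47e-06). Of 5 lymphatic endothelial genes, with summed levels of 42.8 to 50.9 CPM and 11.1 to 12.8 CPM, 2 were lower (Flt4 and Prox1) and 1 higher (Pdpn). Prox1 had 1056 to 1620 counts in heart libraries and 10 to 21 in quadriceps. Its mean of 28.8 CPM in heart made up most of the summed lymphatic level there, against a mean of 0.717 CPM in quadriceps. The difference between the summed lymphatic levels thus mainly follows this 1 gene and is not a measure of the list as a whole. Ccl21a and Reln did not pass, with log2 fold changes of 0.07 and -0.11 (adjusted p = 0.856 and 0.751). Of 5 fibroblast genes, with summed levels of 502 to 563 CPM and 361 to 501 CPM, 3 were lower, with Pdgfra 1.86-fold lower (adjusted p = 0.000527) and Tcf21 at 0 in every quadriceps library. Of 7 red cell and platelet genes, with summed levels of 244 to 294 CPM and 73.1 to 90.7 CPM, 6 were lower, among them Hbb-bs at 2.85-fold. Pf4, which macrophages also express, was the 1 higher gene, without overlap (log2 fold change 0.61, SE 0.18, adjusted p = 0.0138). The part of vessels, connective tissue and blood in the marker results was not tested.

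**Figure D4:**
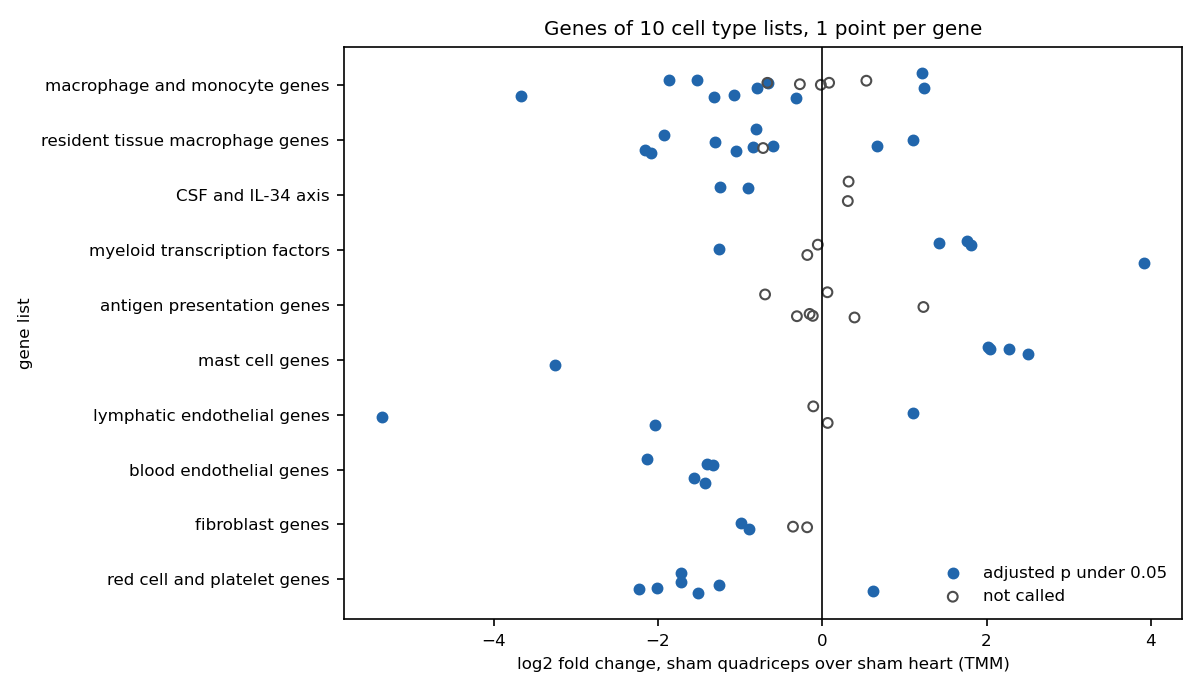
Log2 fold changes of sham quadriceps over sham heart (TMM) for the tested genes of 10 cell type lists, 1 point per gene, filled where the adjusted p was under 0.05. Genes with at most 3 counts in every quadriceps library are left out. Most macrophage, resident macrophage and all blood endothelial points lie to the left of 0, and 4 of 7 myeloid transcription factors and 4 mast cell genes lie to the right as filled points.

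After TAC, Lyz2 was the only one of the 3 measured markers to pass an adjusted p under 0.05 in quadriceps. This comparison asked which transcripts differ in muscle that wastes during heart failure. The table is not a whole transcriptome: by the paper's methods the genes were filtered for products of the extracellular region, so the percentages of all genes given here refer to selected genes. Values are counts normalised over the listed genes, and a log2 fold change is of TAC over sham. Lyz2 had 586, 485 and 705 normalised counts in sham and 252, 195 and 301 in TAC libraries. No TAC library reached a sham library, and the level was 2.37-fold lower (log2 fold change -1.25, SE 0.26, adjusted p = 0.0120 by edgeR over 586 genes). Of all genes tested, 11.9% were lower and 17.7% higher at an adjusted p under 0.05, and 47.3% had groups without overlap. With a log2 fold change of at least 1 and an unadjusted p under 0.05, Lyz2 was again the 1 marker that was lower, against 12.6% of genes lower and 11.4% higher. Without sham library 3 the adjusted p of Lyz2 was 0.0570, with a log2 fold change of -1.10.

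Lyz1 had 90.2, 47.5 and 30.2 normalised counts in sham and 36.8, 23.5 and 31.0 in TAC libraries. The groups overlapped, and sham library 1 held by far the highest value (log2 fold change -0.90, SE 0.42, adjusted p = 0.145). Without sham library 1 the log2 fold change was -0.39. The share of Lyz1 in the counts of both lysozyme genes was 12.8%, 10.8% and 9.34% in TAC libraries, within the range of the sham quadriceps libraries (exact permutation test, two-sided, p = 0.6).

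Csf1 is represented in this table by its shortest transcript, NM_001113530, with 36.6, 29.3 and 30.2 normalised counts in sham and 27.1, 23.5 and 67.1 in TAC libraries. The TAC library numbered 4 was above all others and the other TAC libraries were below all sham libraries (log2 fold change 0.28, SE 0.44, adjusted p = 0.645). Without library 4 the log2 fold change was -0.43, so 1 library sets its direction.

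Of the macrophage-lineage lists, 7 genes were measured in this comparison, and 3 were lower after TAC and 0 higher by edgeR. Mertk alone of these was higher at an unadjusted p under 0.05. Itgam, the integrin CD11b of myeloid cells, had 57.7, 69.7 and 81.1 normalised counts in sham and 29.1, 16.6 and 16.0 in TAC, 3.35-fold lower (log2 fold change -1.74, adjusted p = 0.00887). C1qc had 95.1, 102 and 97.6 normalised counts in sham and 37.8, 42.1 and 31.0 in TAC, 2.65-fold lower (adjusted p = 0.00664). The groups of both genes did not overlap. C1qa was 1.85-fold lower (adjusted p = 0.0451), a call that was lost without any one of 5 of the libraries. C1qb, with a log2 fold change of -0.58, Ctss, a lysosomal protease, with -1.24, Mertk, a receptor for dying cells, with 0.66, and its ligand Gas6, with 0.17, did not pass (adjusted p = 0.120, 0.0656, 0.0967 and 0.553).

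The TAC libraries 1 and 2 had totals of 48614494 and 48999600 counts, against 23383452 to 32989108 in the sham libraries, so surgery and depth cannot be told apart. Library totals, which could be had for 5 of the 6 libraries, put the median log2 fold change of the listed genes at -0.63, with 180 lower and 20 higher calls, and gave Lyz2 a log2 fold change of -2.05. TMM on the same 5 libraries, without TAC library 4, gave -0.08, 71 and 65, and -1.48 for these, and TMM on all 6 libraries a median of 0.03 with 70 lower and 104 higher calls. Other markers in the same libraries were Pecam1, with a log2 fold change of 0.63 (adjusted p = 0.0341), and the collagen genes Col1a1 and Col3a1, which were 9.91-fold and 15.4-fold lower (adjusted p = 0.000557 for both). Pf4, a platelet chemokine that macrophages also express, was 2.73-fold lower without overlap (adjusted p = 0.0155). The alpha globin gene Hba-a1, a marker of red cells, had 1039 and 1248 normalised counts in TAC libraries 1 and 2 and 191 in library 4, against 767 to 912 in sham libraries. For Dcn of fibroblasts the log2 fold change was 0.17 (adjusted p = 0.601). The part of connective tissue and blood in the Lyz2 result was not tested.

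**Figure D5:**
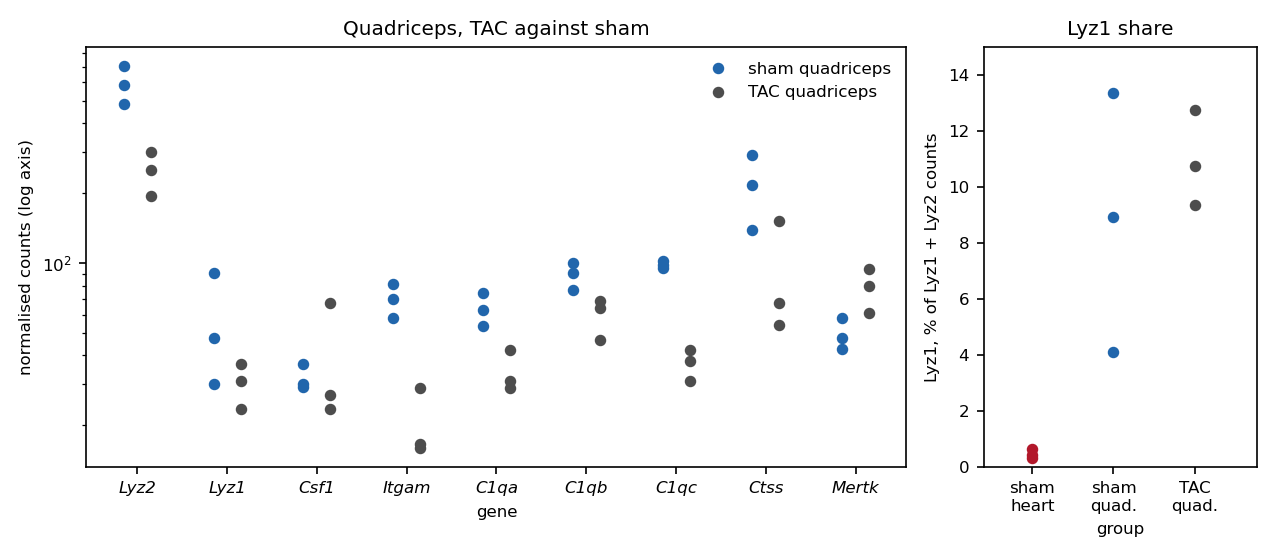
Left, normalised counts (log axis) of 9 genes in 3 sham and 3 TAC quadriceps libraries, 1 point per library. Right, Lyz1 as a percentage of Lyz1 and Lyz2 counts in the 3 groups, from 0.316% to 0.618% in heart and from 4.11% to 13.3% in sham quadriceps, with the TAC libraries inside the latter range. The TAC points of Lyz2, Itgam, C1qa, C1qb and C1qc lie below all sham points, and those of Mertk lie above them.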

How the data were processed

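RNA of quadriceps (3 sham and 3 TAC libraries) and of sham heart (3 libraries) was sequenced by the authors in single-end runs of 50 cycles. Per the labels and the paper, reads were trimmed with Trim Galore!, aligned with STAR to mm10 and counted with Rsubread. The authors deposited raw counts per RefSeq transcript, and RPKM values, which are counts divided by transcript length and library total. The tables also hold the authors' fold changes and p-values from edgeR, which were not used. The TAC table has 1 transcript for each of 587 genes. A column numbered 4 was taken as a TAC library without pairing, since the labels run to 3, and 1 column of single libraries (its RPKM) was not used.

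A transcript was kept where at least 2 libraries had more than 5 counts. Counts were compared by the quasi-likelihood test of edgeR 4.0.16 (R 4.3.3, TMM, Benjamini-Hochberg adjustment), with TMM and adjustment over the listed genes only in the TAC table. The labels number the libraries as replicates without naming animals, and the paper calls them biological replicates. Each pair of replicate libraries differed by more than sampling noise (chi-square per degree of freedom at least 7.40). The same-number correlations of heart and quadriceps libraries ran from -0.108 to 0.0378, so the numbers were not taken to pair them. The procedure was tested on simulated data. Alternatives were DESeq2 1.42.0 and its size factors, library totals, 2 other filters, limma 3.58.1 on log2 RPKM plus a pseudocount of 0.5 or 0.1, 1 row per gene name, the replicate block and leaving out each library.

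The marker genes and all lists were chosen with earlier results of these data known. Genes are named as all 10 markers, defining markers and extremes of the lists, and the 5 most like Csf1r in pattern. Others, among them Trem2, Cbr2, Cd209f, Cd74, Itgax and the TAC genes outside the markers, were named after their values were seen. Positions come from GENCODE vM21 (GRCm38). Sequences were compared in Python 3.11.15 with Biopython 1.88. Not every gene of the lists is reported here by name.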

Additional observations from a re-analysis of the deposited data

How the results depend on the processing

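In sham quadriceps against heart, the counts of 7 markers lower and 1 higher at an adjusted p under 0.05 held or stayed within 1.5 times under the alternatives run, except that the higher count was 0 with at least 10 counts required in every library, a filter that removes Lyz1. The count lower beyond 2 on the log2 scale was 3 with library totals and 2 with limma and a pseudocount of 0.1, and the count higher beyond 2 was 0 with that filter and 0 with limma and a pseudocount of 0.5. Cd163 was reversed with library totals (-0.55) and with limma (-0.42 at a pseudocount of 0.5 and -0.51 at 0.1). With library totals the macrophage-lineage lists had 4 genes higher and 9 lower beyond 2, and the other leukocyte lists 2 higher and 0 higher beyond 2. Leaving out 1 library gave 4 to 9 macrophage-lineage genes higher, 1 to 3 higher beyond 2, and for other leukocytes 1 to 3 lower, 1 to 3 lower beyond 2 and 1 to 4 higher beyond 2. For other leukocytes the lowest counts came without heart library 2 (1 lower and 1 higher beyond 2) and without quadriceps library 2 (1 lower beyond 2), and the 3 macrophage-lineage genes higher beyond 2 came without quadriceps library 3.

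After TAC, the markers lower by at least 1 on the log2 scale numbered 3 with library totals, 2 with the replicate block in libraries 1 and 2, and 2 in these libraries without a block, a setting chosen after seeing the data. Leaving out 1 library gave 0 to 1 markers lower at an adjusted p under 0.05 and 1 to 2 lower by at least 1. Csf1 was reversed with library totals (-1.0002), limma (-0.39), the replicate block (-0.38) and libraries 1 and 2 without a block (-0.38), all of which also lack TAC library 4, whose removal alone reversed Csf1 with TMM. It ranged from -0.43 to 0.54 when 1 library was left out. Gas6 was reversed with library totals (-0.38) and limma (-0.38), while TMM without that library gave 0.17.

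In the heart comparison the fit with the replicate number as a block (replicate block) also gave 7 markers lower and 1 higher. In the TAC comparison the correlation of the deviations of same-numbered libraries was 0.0636. The cause of these changes was not tested. The few counts of Lyz1 and the 4 higher mast cell genes in heart, and of T, B and NK cell genes, limit what can be said of them at this depth.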
